A study of Mus musculus with 2 samples.

Results

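The genes described here were the canonical Notch ligands Dll1, Dll4, Jag1 and Jag2, the receptors Notch1, Notch2, Notch3 and Notch4, and the target gene Hes1. These 9 genes were chosen by name and not by a cut on their measured values, although earlier results of these data were known. All 9 were among the 17809 genes listed for the wild-type colon, and 7 of the 9 were among the 15972 genes listed for the reporter mice, where Dll4 and Jag2 were not listed. Single-cell 3' RNA sequencing had been done on 2 mouse colon libraries. The first came from C57BL/6 mice and mixed in equal parts sorted EpCAM+ CD45- epithelial cells and sorted EpCAM- CD45- cells, with a V3 kit. The second came from Pdgfra-H2B-eGFP mice, in which a nuclear GFP is driven by the Pdgfra promoter, and held GFP-positive mesenchymal cells made into a library with a V2 kit. Each library pooled 3 untreated female mice of 8 to 12 weeks, so that there was 1 sample per group, no comparison had a replicate, and no p-value is given. There were 7495 cells from the wild-type colon and 4409 from the reporter mice, and 1 cell barcode occurred in both.

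Notch signalling passes between touching cells: a Delta-like or Jagged ligand on one cell binds a Notch receptor on its neighbour, proteases release the intracellular part of the receptor, and this part joins the DNA-binding protein Rbpj to switch on genes such as Hes1. In the intestinal crypt the pathway keeps stem and progenitor cells undifferentiated. Hes1 represses Atoh1, the transcription factor of secretory cells, and secretory cells present Delta-like ligands to their neighbours. In vessels Dll4, Jag1, Notch1 and Notch4 act in the endothelium and take part in arterial identity, while Notch3 is the receptor of pericytes and vascular smooth muscle.

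Cells were grouped by clustering in which none of the Notch pathway genes was used, and the clusters were named from lists of marker genes. The wild-type library gave 21 classes with a name or a leading feature, holding 6369 cells, and 1126 cells stayed unnamed. The reporter library gave 6 classes. The values are the depth-corrected counts that the authors deposited. A level below is the mean of these counts over the cells in a class, and a share is the percentage of its cells with a value above 0, with its 95% Clopper-Pearson interval, which covers counting error only. A level near 0 can come from free RNA: Epcam, an epithelial surface protein, was above 0 in 62.8% of the CTFs-like cells outside the Il1rl1-high class and in 86.0% of the cells of one blood endothelial-like class, at mean corrected counts of 1.02 and 1.2 against 31.3 in enterocyte-like cells. Between the libraries, levels are set side by side only, because the tables were corrected separately.

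On the GRCm38 build Dll1 lies on chromosome 17 at chr17:15367354-15376872, minus strand, and Dll4 on chromosome 2 at chr2:119325784-119335962, plus strand. The Jagged genes lie at chr2:137081456-137116644 (Jag1) and chr12:112907819-112929776 (Jag2), the receptor genes at chr2:26457903-26516663 (Notch1), chr3:98013527-98150361 (Notch2), chr17:32120820-32166852 (Notch3) and chr17:34564268-34588503 (Notch4), and Hes1 at chr16:30064384-30067796. All 9 are protein-coding. The annotated genes that overlap them on the same strand are 2 microRNA genes, Mir6941 in Jag2 and Mir6996 in Notch1, and 2 predicted genes in Notch2. The promoter windows of the Delta-like ligands are shown because both ligands had their highest epithelial level in the same class of cells. The 250 bases before the annotated start (RefSeq, GRCm38.p6; for Dll1 the more upstream of its 2 starts) are written 5' to 3' on the strand of the gene, and capitals mark each E box, CANNTG on either strand, the general motif of basic helix-loop-helix factors such as Atoh1.
Dll1, chr17:15376933-15377182, minus strand: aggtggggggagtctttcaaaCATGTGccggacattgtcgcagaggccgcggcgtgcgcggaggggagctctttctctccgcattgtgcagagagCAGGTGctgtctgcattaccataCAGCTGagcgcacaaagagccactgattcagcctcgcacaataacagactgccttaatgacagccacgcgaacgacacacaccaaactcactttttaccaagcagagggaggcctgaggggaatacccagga
Dll4, chr2:119325534-119325783, plus strand: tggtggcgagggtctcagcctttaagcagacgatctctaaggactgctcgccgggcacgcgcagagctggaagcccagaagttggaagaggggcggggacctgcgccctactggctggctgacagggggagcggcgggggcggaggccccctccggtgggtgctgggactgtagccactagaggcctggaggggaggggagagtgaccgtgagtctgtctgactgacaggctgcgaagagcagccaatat
This Dll1 window held 3 E boxes, the window of its other start 1 and the Dll4 window none, while 66.2% of the 32851 promoter windows of this length in the table held at least 1. The core motif of Rbpj, TGGGAA on either strand, was in 0 of the 9 windows found for 8 of the members and in 21.6% of all windows. A match or its absence says only which letters stand in these 250 bases.

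Each member had its own set of classes with a high level in the wild-type library. Dll1 was highest in Reg4-high goblet-like cells, Dll4, Jag1, Jag2 and Notch1 in arterial-like cells, Notch3 in pericyte-like cells, Notch4 in a blood endothelial-like class, and Notch2 and Hes1 in CBFs2-like cells. Notch3 was the most uneven of them beside its median, which was 0.00867 corrected counts per cell over the 21 classes, with levels from 0 to 4.11. The lowest share of cells with Hes1 above 0 in any class was 25.0%, and its level ran from 0.405 in enteroendocrine-like to 9.31 in CBFs2-like cells.

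**Figure D1:**
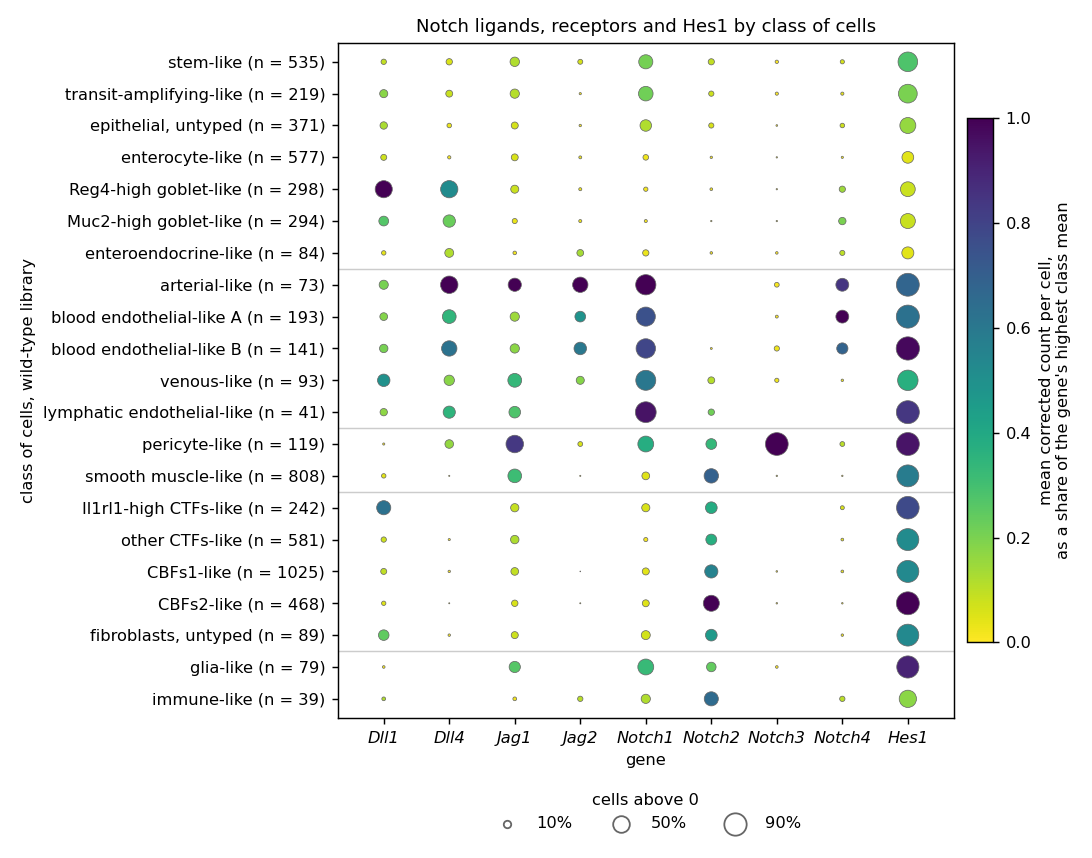
Each row is 1 of the 21 wild-type classes with its number of cells, and each column is 1 of the 9 genes; the area of a dot is the share of cells above 0, and its colour is the mean corrected count per cell divided by the highest class mean of that gene. Notch3 is dark in pericyte-like cells alone (mean 4.11), Dll1 is darkest in Reg4-high goblet-like cells (0.866), and Hes1 has large dots in the stromal and vascular classes, with at least 75.3% of cells above 0.

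In the epithelium, the ligands Dll1 and Dll4 were highest in goblet-like cells. The goblet-like cells, the mucus-secreting cells, numbered 592 and had 0.551 corrected counts of Dll1 per cell, against 0.089 in the 1786 cells of the other epithelial classes, a 6.19-fold higher level. Dll4 stood at 0.527 against 0.0616, an 8.56-fold higher level. Dll1 was above 0 in 35.3% of the goblet-like cells (31.5 to 39.3) and in 7.39% of the others (6.22 to 8.7), and Dll4 in 40.7% (36.7 to 44.8) and 5.32% (4.32 to 6.46). The Jagged ligands stayed nearer to the other cells: Jag1 was at 0.0861 against 0.123 and Jag2 at 0.0169 against 0.0269, both within 2-fold. Counting both directions, 5 of the 9 members differed by 2-fold or more between goblet-like and other epithelial cells, 3 higher and 2 lower, where 28.5% of all 13619 genes with a summed value of at least 20 did so, 11.1% higher and 17.5% lower. The third member with a higher level was Notch4, at 0.0845 against 0.0246, and the lower ones were Notch1, at 0.0338 against 0.288, and Notch2, at 0.00845 against 0.0431.

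The goblet-like cells fell into 2 classes that the ligands separated further. One class had the higher level of Reg4, known from the deep crypt secretory cells beside colonic stem cells, with a mean of 41.9 against 3.54 in the other. The other had the higher level of the mucin Muc2, 373.0 against 83.7. Atoh1 was at nearly the same level in both, 2.63 in Reg4-high and 2.51 in Muc2-high cells. Neither class was named deep crypt secretory. The fixed list of those markers (Reg4, Kit, Cd24a, Agr2 and Spink4) matched the Muc2-high class best, with 4 markers past 2-fold, whereas the Reg4-high class was matched best by the general goblet list. The Muc2-high class also matched the goblet list beside all other cells, and both were called goblet-like. Dll1 was above 0 in 158 of 298 Reg4-high cells, 53.0% (47.2 to 58.8), and in 51 of 294 Muc2-high cells, 17.3% (13.2 to 22.2). Its level of 0.866 was 3.74-fold that of 0.231 in the Muc2-high cells. Dll4 was above 0 in 53.7% (47.8 to 59.5) of the Reg4-high and 27.6% (22.5 to 33.0) of the Muc2-high cells, with levels of 0.732 and 0.32. The intervals of the 2 classes did not overlap for either ligand. With every cell thinned to a total of 2000, the shares were 14.1% and 5.1% for Dll1 and 14.8% and 6.46% for Dll4. Jag1 followed at a lower share, above 0 in 11.7% (8.32 to 16.0) against 4.76% (2.63 to 7.86) of the cells. These 3 ligands were the members past 2-fold among the 6 that passed the minimum sum, all higher, where 17.5% of all genes were past 2-fold, 6.23% higher and 11.3% lower.

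Dll1 and Dll4 were often found in the same cells. Within the Reg4-high class, Dll4 was above 0 in 67.1% (59.2 to 74.3) of the 158 cells with Dll1 and in 38.6% (30.5 to 47.2) of the 140 cells without it. The cells with Dll1 had a median of 3189.5 genes per cell and those without it 3066.0. Notch1 was near 0 on both sides, above 0 in 3.16% and 3.57% of the cells.

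The 2 Delta-like ligands also had higher shares in a small set of progenitors with Atoh1. Stem-like cells had the stem-cell receptor gene Lgr5 above 0 in 28.0%, and transit-amplifying-like cells the proliferation marker Mki67 in 98.2%. Of these 754 cells together, 48 had Atoh1 above 0. Dll1 was above 0 in 43.8% (29.5 to 58.8) of those 48 cells and in 4.67% (3.24 to 6.5) of the other 706. Dll4 was above 0 in 35.4% (22.2 to 50.5) and 5.81% (4.2 to 7.8). Hes1 ran the other way in value, above 0 in 52.1% (37.2 to 66.7) of the cells with Atoh1 and 68.6% (65.0 to 72.0) of those without, although these intervals overlapped. By number, most progenitors with either ligand had no Atoh1. Dll1 was above 0 in 21 cells with Atoh1 and 33 without, and Dll4 in 17 and 41. Of the 54 progenitors with Dll1, 38.9% (25.9 to 53.1) had Atoh1 above 0. Median genes per cell were 3577.0 with Atoh1 and 3378.0 without, and mixed droplets of a progenitor and a goblet cell could not be told apart from single cells here.

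**Figure D2:**
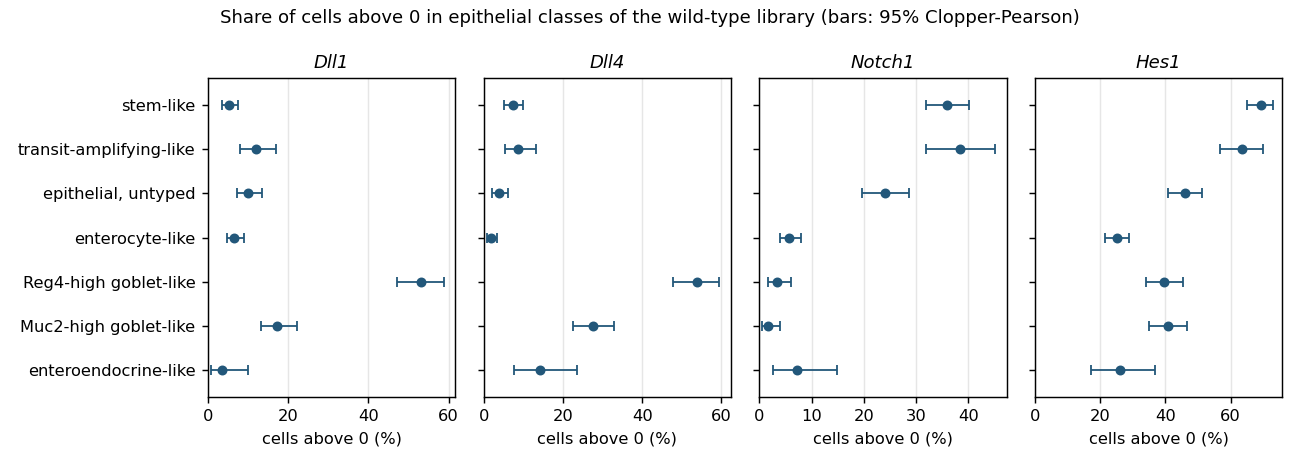
Points give the percentage of cells above 0 in each epithelial class of the wild-type library for Dll1, Dll4, Notch1 and Hes1, and bars the 95% Clopper-Pearson interval. Dll1 and Dll4 peak in Reg4-high goblet-like cells (53.0% and 53.7%), where Notch1 is at 3.36%, while Notch1 and Hes1 peak in stem-like and transit-amplifying-like cells.

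Enteroendocrine-like cells, the hormone-secreting cells, had Dll4 but little Dll1. Of these 84 cells 14.3% (7.61 to 23.6) had Dll4 above 0 and 3.57% (0.743 to 10.1) Dll1. Jag2 was above 0 in 8.33% (3.42 to 16.4), the highest share among the epithelial classes, although the interval overlapped that of stem-like cells, 4.49% (2.9 to 6.6). The noncanonical ligand Dner was above 0 in 42.9% of the enteroendocrine-like cells and in 0.347% of the enterocyte-like cells.

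Outside the epithelium, Dll4 and Jag2 were highest in vessel cells, while Jag1 was also found in muscle and glia. The 500 blood endothelial-like cells, defined by Pecam1 and related genes, were compared with the other 5869 named cells of the wild-type library. Jag2 had 0.382 corrected counts per cell against 0.0119, a 32.0-fold higher level, and Dll4 had 0.682 against 0.0837, 8.15-fold. Jag1 was at 0.464 against 0.199, but smooth muscle-like cells had a similar level of 0.467 and glia-like cells one of 0.392. Of the 9 members, 5 were 2-fold or more higher in blood endothelial-like cells (Dll4, Jag1, Jag2, Notch1 and Notch4) and 1 was lower (Notch2), where 44.2% of all genes tested were past 2-fold, 8.03% higher and 36.1% lower. In fibroblasts, which should lack it, Dll4 was above 0 in 0.748% (0.444 to 1.18) of 2405 cells. The fibroblast classes had medians from 2196.0 to 2906.0 genes per cell and the blood endothelial-like classes from 2017.0 to 2630.0.

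Within the endothelium the 3 ligands were highest in the arterial-like class of 73 cells, which carried Gja5, an arterial connexin, at 0.452 against 0.0281 in the other blood endothelial-like cells. Jag1 was at 1.48 against 0.29, a 5.09-fold higher level. It was above 0 in 31.5% (21.1 to 43.4) of arterial-like cells and 19.7% (16.0 to 23.8) of the others, so that the intervals overlapped and the difference lay in cells with high values, up to 19 in 1 cell. Dll4 stood at 1.4 against 0.56 and Jag2 at 0.712 against 0.326, 2.5-fold and 2.19-fold higher. Dll4 was above 0 in 54.8% (42.7 to 66.5) of arterial-like and 33.7% (29.2 to 38.4) of the other cells, and Jag2 in 42.5% (31.0 to 54.6) and 21.3% (17.5 to 25.5). These 3 were the members past 2-fold among 8 that could be compared, where 12.4% of all genes tested were, 4.83% higher and 7.59% lower. The receptors Notch1, at 2.33 against 1.7, and Notch4, at 0.411 against 0.333, stayed within 2-fold, and so did Hes1, at 6.3 against 6.4.

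The venous-like class of 93 cells, led by Ackr1 and the adhesion molecule Selp, had Dll1, Jag1 and Dll4. Dll1 was above 0 in 28.0% (19.1 to 38.2) of its cells, against 15.1% (7.77 to 25.4) in arterial-like cells, and these intervals overlapped. Its level of 0.43 was the third highest of the 21 classes. Jag1 was above 0 in 34.4% (24.9 to 45.0), against 31.5% in arterial-like cells, at a level of 0.495, also the third highest. Dll4 was at 0.247, below the 0.482 and 0.872 of the 2 blood endothelial-like classes without a vessel type. Notch4 was above 0 in 1.08% (0.0272 to 5.85) of venous-like cells and in 30.1% (19.9 to 42.0) of arterial-like cells. Median genes per cell were 2630.0 in the venous-like and 2044.0 in the arterial-like class. Thinning the corrected counts to 2000 per cell gave Dll1 shares of 8.6% and 2.74%. The original depth is not in these values, so its part in the Dll1 share was not tested. The 41 lymphatic endothelial-like cells had Dll4 above 0 in 26.8% (14.2 to 42.9) and 0 cells with Jag2, with an interval up to 8.6%.

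**Figure D3:**
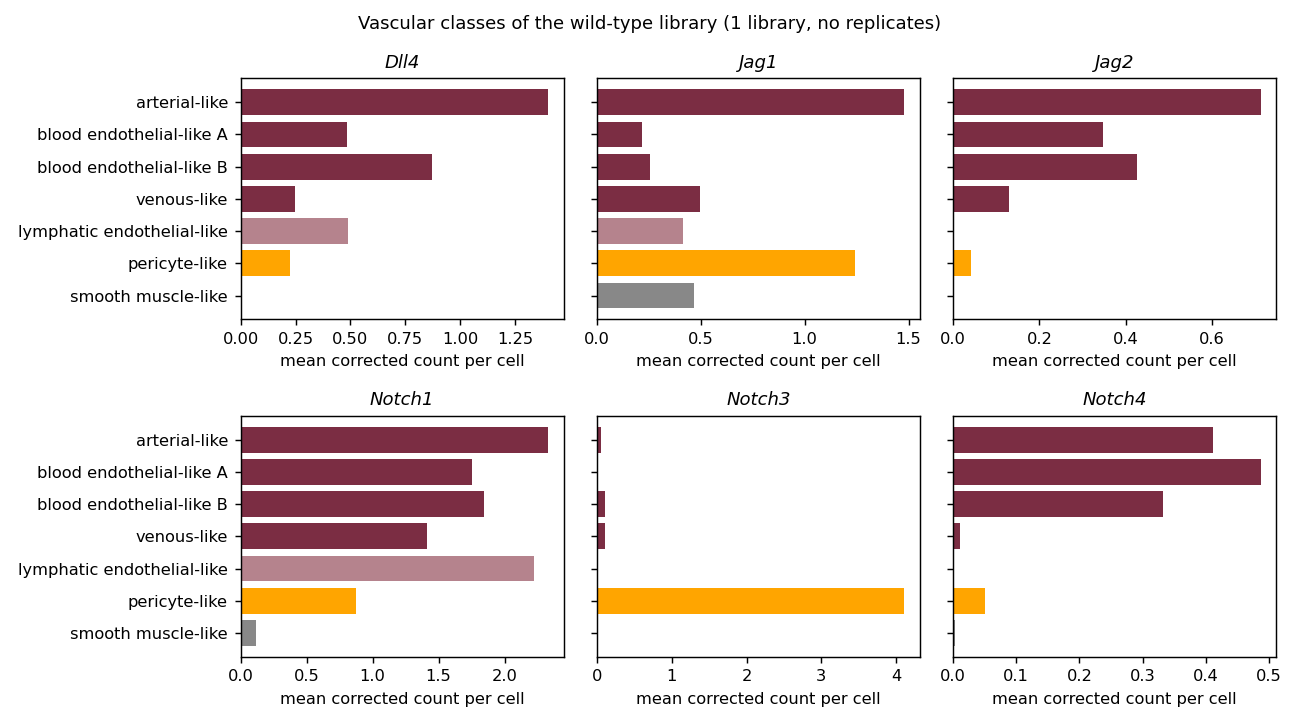
Bars give the mean corrected count per cell of 6 members in 5 endothelial classes, pericyte-like and smooth muscle-like cells of the wild-type library, each panel with its own axis from 0. Jag1 is high in arterial-like (1.48) and pericyte-like cells (1.24), Notch3 reaches 4.11 in pericyte-like cells and 0.108 at most in the endothelial classes, and Notch4 is near 0 in venous-like cells (0.0108).

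Pericyte-like cells, named after the contractile cells that wrap capillaries, held Jag1 beside the receptors Notch1 and Notch3. Their cluster was led by Pln, Colec11, Vtn, Rergl and Slc11a1, and whether it held vascular smooth muscle cells was not tested. The 119 pericyte-like cells had Rgs5, a pericyte marker, above 0 in 97.5%. They were compared with 808 smooth muscle-like cells, of which 99.9% had the muscle myosin Myh11. This class was led by Actc1, Hhip, Cnn1, Lmod1 and Myh11. Whether it included vascular muscle cells or myofibroblasts was not tested. Jag1 was at 1.24 against 0.467, a 2.65-fold higher level, and was above 0 in 55.5% (46.1 to 64.6) and 33.8% (30.5 to 37.2). Dll4 was above 0 in 16 pericyte-like cells, 13.4% (7.88 to 20.9), and in 2 smooth muscle-like cells, 0.248% (0.03 to 0.891). The endothelial marker Pecam1 was above 0 in 13.4% of the pericyte-like cells, at 0.437 against 10.3 in arterial-like cells, and the part of endothelial RNA in the Dll4 level was not tested. Of 7 members that could be compared, 4 were 2-fold or more higher in pericyte-like cells and 1, Notch2, was lower, where 29.5% of all genes tested were past 2-fold, 10.6% higher and 18.9% lower.

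Among fibroblasts Dll1 was the ligand past 2-fold between CTFs-like and CBFs-like cells in the wild-type library, but not in the reporter library. CTFs and CBFs are the names that the study uses for fibroblasts towards the top and the bottom of the crypt, and Bmp3, a CTFs marker, was above 0 in 45.0% of the wild-type CTFs-like and 3.48% of the CBFs-like cells. In the wild-type library the 823 CTFs-like cells had a Dll1 level of 0.208, which was 2.98-fold the 0.0697 of the 1493 CBFs-like cells. It was the only one of 6 members compared that was past 2-fold, where 18.2% of all genes tested were, 6.89% higher and 11.3% lower. The reporter cells, 650 of them CTFs-like and 3593 CBFs-like, had levels of 0.0846 and 0.061, a 1.39-fold difference. There 1 of 5 members was past 2-fold, where 16.4% of all genes were, 8.26% higher and 8.17% lower. The counts of both libraries were near the shares of all genes. The reporter member past 2-fold was Notch1, above 0 in 3 CTFs-like cells, 0.462% (0.0953 to 1.34), and in 2.03% (1.6 to 2.55) of the CBFs-like cells. The Dll1 difference of the reporter library turned to the lower side, -0.33 on the log2 scale, when the Notch genes were kept for the clustering.

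The Dll1 level of the CTFs-like cells came largely from 1 of their 2 classes. This class had the higher level of Il1rl1, the receptor of interleukin-33, above 0 in 16.5% against 0.861% of the wild-type cells. Nrg1, a growth factor of the epidermal growth factor family, marked it more widely, above 0 in 78.5% against 15.5%. Bmp3 was above 0 in 14.5% of these cells and 57.7% of the others, and in 3.76% and 48.2% of the corresponding reporter cells. The split was added after the values were seen. In the wild-type library Dll1 was above 0 in 87 of 242 Il1rl1-high CTFs-like cells, 36.0% (29.9 to 42.3). In the other CTFs-like cells it was above 0 in 30 of 581, 5.16% (3.51 to 7.29). The level was 0.545 against 0.0671, 8.13-fold higher. In the reporter library the shares were 20.3% (13.8 to 28.1) of 133 cells and 4.45% (2.84 to 6.6) of 517 cells, and the level was 0.226 against 0.0484, 4.66-fold higher. In each library the Dll1 share was higher in the Il1rl1-high class, with counting intervals apart that do not measure differences between mice. The reporter split was not formed with 15 principal components or with the Notch genes kept. Within the wild-type class Dll1 was above 0 in 42.5% (27.0 to 59.1) of 40 cells with Il1rl1. In the 202 cells without Il1rl1 it was above 0 in 34.7% (28.1 to 41.7), so that these intervals overlapped. The Il1rl1-high cells had more genes per cell, with medians of 2870.5 against 2196.0 in the wild-type mice and 1818.0 against 1437.0 in the reporter mice. With the corrected counts thinned to 2000 per cell the shares were 11.2% against 1.55% and 9.77% against 2.9%. The part of the original depth, which is not in these values, was not tested. Of the wild-type genes tested, 15.9% were past 2-fold in this comparison, 11.3% higher and 4.54% lower, and of 5 members Dll1 and Notch1 were higher. Of the reporter genes tested, 16.0% were past 2-fold, 12% higher and 3.97% lower, and of 4 members Dll1 was higher and Jag1 lower. The Jag1 shares of the reporter cells, 2.26% (0.468 to 6.45) and 4.64% (3.0 to 6.83), overlapped.

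Between the kinds of bottom fibroblast, the Dll1 intervals overlapped in the wild-type library and were apart in the reporter library. They cover counting error over the cells of 1 library each. Neither the difference between the classes nor that between the libraries was tested. CBFs1-like cells had the growth factor gene Wnt2 above 0 in 23.7% of wild-type and 9.81% of reporter cells. Their Dll1 was above 0 in 6.54% (5.1 to 8.23) of 1025 wild-type and 6.09% (5.22 to 7.05) of 2742 reporter cells. CBFs2-like cells had the marker Pi16 above 0 in 60.7% of wild-type and 40.4% of reporter cells. Their Dll1 shares were 3.42% (1.97 to 5.49) of 468 and 0.823% (0.331 to 1.69) of 851 cells, so that the wild-type intervals overlapped. At a total of 2000 per cell the shares of CBFs1-like and CBFs2-like cells were 1.56% and 1.71% in wild-type mice and 4.27% and 0.47% in reporter mice. The reporter CBFs1-like cells came from 3 clusters that matched no marker list beside all other reporter cells. Dll1 was above 0 in 6.26%, 3.09% and 11.5% of the cells of these clusters. The last was led by Saa3 and Cxcl5, genes of the inflammatory response, and had the most genes per cell of the 3, a median of 1874.5. Jag1 varied less among the fibroblasts and was above 0 in 7.48% to 12.9% of the cells of the 4 wild-type classes and 2.26% to 4.94% of those of the 4 reporter classes. Dll4 was above 0 in 18 and Jag2 in 2 of the 2405 wild-type fibroblasts.

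**Figure D4:**
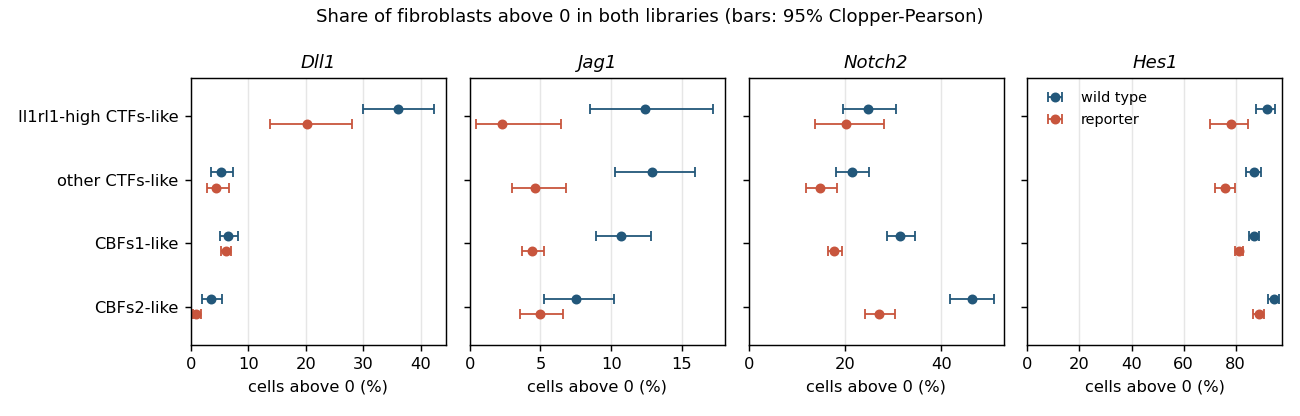
Points give the percentage of cells above 0 for Dll1, Jag1, Notch2 and Hes1 in 4 fibroblast classes, blue for the wild-type and red for the reporter library, and bars the 95% Clopper-Pearson interval. Dll1 stands out in the Il1rl1-high class of both libraries (36.0% and 20.3%), and Notch2 is highest in CBFs2-like cells of both (46.4% and 27.1%).

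Among the named classes, the receptor Notch1 was highest in endothelium and, within the epithelium, in crypt progenitors. It was above 0 in 68.8% (64.5 to 72.8) of blood endothelial-like and 78.0% (62.4 to 89.4) of lymphatic endothelial-like cells, at means of 1.8 and 2.22. In the other named cells its mean was 0.191, a 9.4-fold difference from the blood endothelium. Stem-like cells stood at 0.486 and transit-amplifying-like cells at 0.507, with shares of 35.9% (31.8 to 40.1) and 38.4% (31.9 to 45.1) that did not differ beyond their intervals. The epithelial class led by Krt36, which could not be typed, was at 0.28, and enterocyte-like cells, the absorptive cells, at 0.0589. The lowest levels of the 21 classes were those of Muc2-high goblet-like (0.0306), other CTFs-like (0.0361) and Reg4-high goblet-like cells (0.0369). Within the stem-like class Notch1 was above 0 in 52.0% (43.7 to 60.2) of 150 cells with Lgr5 and 29.6% (25.1 to 34.4) of 385 cells without, at medians of 3409.0 and 3293.0 genes per cell. Glia-like cells, at 0.759, and pericyte-like cells, at 0.874, were between endothelium and progenitors.

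Progenitors and absorptive cells were set side by side to see how the members change along this lineage. Between stem- and transit-amplifying-like cells and enterocyte-like cells, 6 of the 9 members were 2-fold or more higher in the progenitors and 0 were lower, where 46.5% of all genes tested were past 2-fold, 35.1% higher and 11.4% lower. Notch1 was 8.35-fold higher, at 0.492 against 0.0589, Notch2 6.63-fold, at 0.069 against 0.0104, and Hes1 5.54-fold, at 2.39 against 0.432. Dll4 was at 0.0902 against 0.0208, and Notch3 and Notch4 rested on sums of 5 in the enterocyte-like cells. Mitochondrial values moved with this result. They were above 10% in 82.3% of the enterocyte-like and 42.8% of the progenitor cells. Among the 102 enterocyte-like and 431 progenitor cells below that limit, Notch1 stood at 0.118 and 0.448, Hes1 at 0.578 and 1.97, and Dll4 at 0.0588 and 0.0789. The number of members past 2-fold was then 3 of 6 that could be compared, and Dll4, with a log2 ratio of 0.42, was not among them. The share of all genes past 2-fold in these remaining cells is not given here.

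Notch2 was highest in fibroblast, muscle and immune-like cells and low in blood endothelial-like cells. CBFs2-like cells had it above 0 in 46.4% (41.8 to 51.0), smooth muscle-like cells in 37.5% (34.2 to 40.9), the 39 immune-like cells in 35.9% (21.2 to 52.8) and CBFs1-like cells in 31.5% (28.7 to 34.5). The 2 CTFs-like classes were lower, at 24.8% (19.5 to 30.7) for Il1rl1-high and 21.5% (18.2 to 25.1) for the others, and did not differ beyond their intervals, and the first interval also overlapped that of CBFs1-like cells. The same order of CBFs2-like over CBFs1-like cells was seen in the reporter library, at 27.1% (24.2 to 30.3) and 17.8% (16.4 to 19.3). In blood endothelial-like cells the mean was 0.018 against 0.287 in the other named cells, 16.0-fold lower, and it was above 0 in 9 of 500 cells. Of these 9 cells 8 were venous-like, a share of 8.6% (3.79 to 16.2) of that class, and lymphatic endothelial-like cells had it above 0 in 7.32% (1.54 to 19.9). Between CTFs-like and CBFs-like cells Notch2 stayed within 2-fold in both libraries, with 0.296 against 0.546 in wild-type mice and 0.198 against 0.276 in reporter mice.

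Notch3 was almost confined to pericyte-like cells among the named classes. It was above 0 in 111 of 119 pericyte-like cells, 93.3% (87.2 to 97.1), and in 3 of 808 smooth muscle-like cells, 0.371% (0.0766 to 1.08). The next highest share of a named class was 4.96% (2.02 to 9.96), in a blood endothelial-like class. The level of 4.11 was 474.0-fold that of smooth muscle-like cells, whose sum was 7. Whether these muscle cells included vascular ones was not tested. In the 823 wild-type CTFs-like cells it was above 0 in 0, with an interval up to 0.447%, and in the reporter library it was above 0 in 7 of 4243 fibroblasts. Notch1 was also higher in pericyte-like than in smooth muscle-like cells, 7.51-fold, at 0.874 against 0.116, whereas Notch2 was lower, at 0.261 against 0.545.

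Notch4, known as an endothelial receptor, was above 0 in 22.6% (19.0 to 26.5) of blood endothelial-like cells, at a 14.7-fold higher level than in the other named cells. The arterial-like class and the 2 classes without a vessel type, with shares from 22.7% to 30.1%, did not differ beyond their intervals. The venous-like class had 1 cell with Notch4, and the lymphatic endothelial-like class had 0 of 41. Goblet-like cells came next, with Notch4 above 0 in 9.86% (6.71 to 13.9) of Muc2-high and 7.05% (4.41 to 10.6) of Reg4-high cells, against 0.867% (0.282 to 2.01) of enterocyte-like and 1.33% (0.912 to 1.87) of fibroblast cells. No goblet-like cell had a value over 1 for this gene. Pecam1 was above 0 in 0.845% of the goblet-like cells, and the part of endothelial RNA in the Notch4 level was not tested.

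Hes1, the repressor downstream of the receptors, was lower in the epithelium than in stromal and vascular cells. All epithelial classes together had 1.29 corrected counts per cell, all fibroblast classes 5.99 and blood endothelial-like cells 6.38. Within the epithelium the order was stem-like (2.59), transit-amplifying-like (1.89), the Krt36-led class (1.46), Muc2-high (0.765) and Reg4-high goblet-like (0.738), enterocyte-like (0.432) and enteroendocrine-like (0.405). Stem-like and transit-amplifying-like cells did not differ beyond their intervals, 69.2% (65.1 to 73.1) and 63.5% (56.7 to 69.9), and neither did the 2 goblet-like classes, 40.8% (35.1 to 46.7) and 39.6% (34.0 to 45.4). Immune-like cells, at 1.62 (53.8% above 0) in wild-type and 1.86 in reporter mice, were as low as the epithelial progenitors. The highest levels were those of CBFs2-like (9.31), blood endothelial-like B (9.1), pericyte-like (8.83) and glia-like cells (8.42). CBFs2-like cells were also the highest class of the reporter library, at 6.43. There the 3 clusters of CBFs1-like cells differed among themselves, at 5.91, 2.29 and 4.31. A wild-type cluster that matched no marker list, 484 cells with a median of 1741.0 genes and led by haemoglobin genes, also had Hes1 above 0 in 88.8%, at a mean of 2.09. Epcam was above 0 in each of these 484 cells and Col1a1, a fibroblast collagen, in 81.4%, and the part of free RNA in the Hes1 shares was not tested.

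Other targets of the pathway were spread more narrowly than Hes1. Hey1 and Hey2, repressors related to Hes1, Heyl, and Nrarp, a feedback inhibitor, were all 2-fold or more higher in pericyte-like than in smooth muscle-like cells, 4 of the 4 targets that could be compared. Of all genes tested in that comparison 10.6% were higher. Heyl was at 1.02 in pericyte-like cells and had a sum of 0 in smooth muscle-like cells, so that it was at least 274.0-fold higher against a floor of 3 over the class. Nrarp stood at 0.832 against 0.0433. In blood endothelial-like cells 3 of 5 targets were higher, Hey1 at 0.568 against 0.068, Hey2 at 0.092 against 0.0169 and Nrarp at 0.554 against 0.132, and Heyl was lower, at 0.008 against 0.0339. Of all genes tested there 8.03% were higher and 36.1% lower. Hey1 was again highest in arterial-like cells, at 1.26 against 0.45 in the other blood endothelial-like cells. In the epithelium Nrarp was at 0.446 in progenitors, 0.146 in enterocyte-like cells and 0.0997 in goblet-like cells. Between CTFs-like and CBFs-like cells Hey1 was lower in the CTFs-like cells of both libraries, at 0.0486 against 0.115 in wild-type mice and 0.00462 against 0.0206 in reporter mice. Heyl was lower there too, with sums of 1 and 3 in the CTFs-like cells. Hes5 was at 0.0262 in stem-like cells, its highest class.

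Among the enzymes that modify receptors and ligands, single genes differed between classes. Lfng, a glycosyltransferase that alters which ligands a Notch receptor answers to, was highest in goblet-like cells, at 0.448 against 0.125 in the other epithelial classes, and was 3.55 higher on the log2 scale in progenitors than in enterocyte-like cells, at 0.183 against 0.0156. Its relative Mfng was an endothelial gene, at 0.272 in blood endothelial-like and 0.00613 in the other named cells. Neurl1a, a ubiquitin ligase that acts on ligands, was at 0.0963 in goblet-like and 0.0118 in the other epithelial cells. Mib1, another such ligase, was at 0.226 and 0.239 in the same comparison. Rbpj was at 0.182 in blood endothelial-like cells against 0.391 in the others, where fibroblasts had the higher levels. The proteases had 0 of 10 genes past 2-fold in the goblet comparison, where 28.5% of all genes were. In progenitors 2 of 10, Adam17 and Psen2, were higher than in enterocyte-like cells, where 35.1% of all genes were. Dner, a noncanonical ligand, was at 0.2 in wild-type CBFs-like cells and had a sum of 2 in 823 CTFs-like cells, and in the reporter library it was at 0.0623 with a sum of 2 in 650 cells. Of the other pathway genes that could be compared, 10 of 39 were past 2-fold in the goblet comparison, 13 of 32 in the progenitor comparison, 18 of 44 in the endothelial comparison, 4 of 35 in the arterial comparison and 11 of 38 in the pericyte comparison. Over all genes these shares were 28.5%, 46.5%, 44.2%, 12.4% and 29.5%, and the pathway genes were near or below them in each comparison. The counts for CTFs-like against CBFs-like cells were 8 of 37 in wild-type mice and 7 of 34 in reporter mice, a little above the 18.2% and 16.4% of all genes. Reg4-high against Muc2-high cells gave 3 of 32, and Il1rl1-high against other CTFs-like cells gave 3 of 31 and 4 of 28 in the same order, below the 17.5%, 15.9% and 16.0% of all genes. Dlk2 and Olfm4 were not listed in either table.

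**Figure D5:**
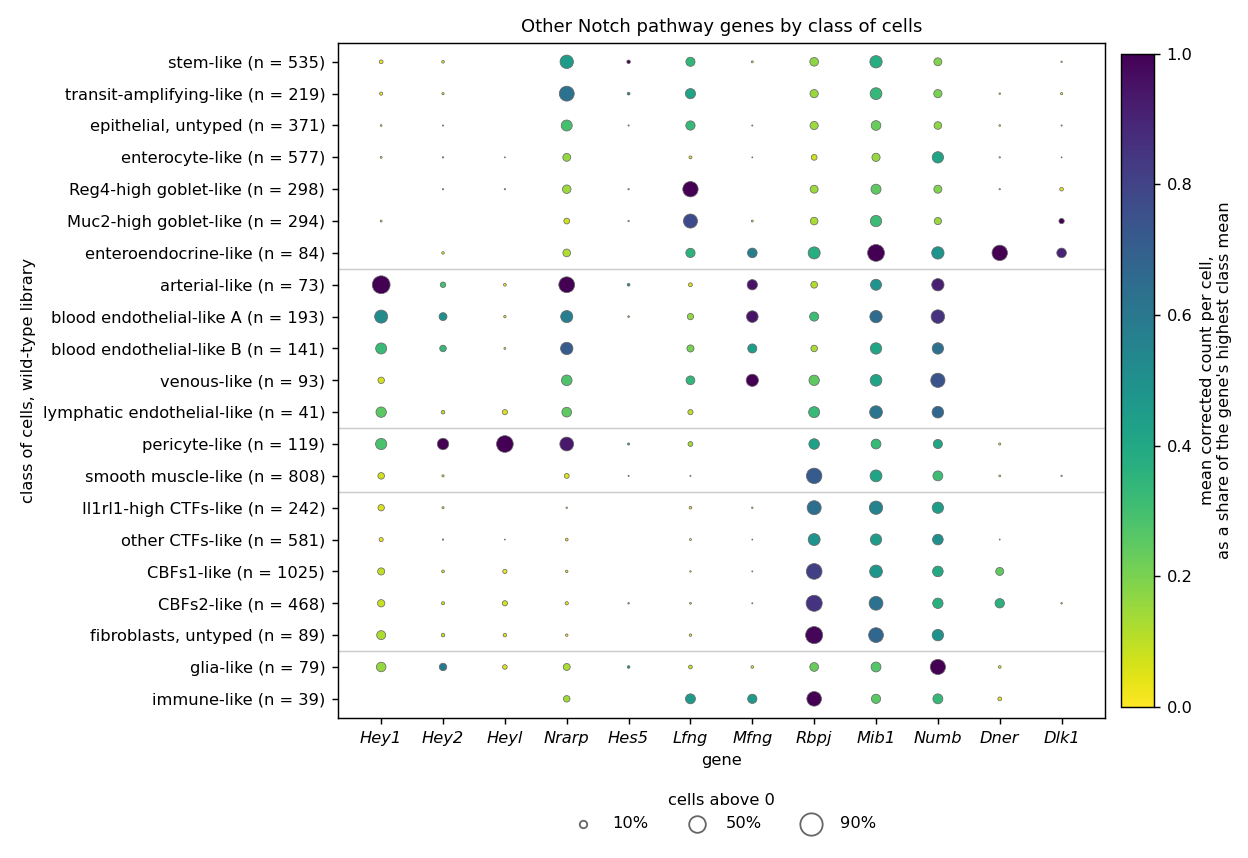
Rows are the 21 wild-type classes and columns 12 other genes of the pathway; dot area is the share of cells above 0 and colour the mean corrected count per cell as a share of the highest class mean of that gene. Hey1 is highest in arterial-like cells (1.26), Heyl in pericyte-like cells (1.02) and Lfng in Reg4-high goblet-like cells (0.503).

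The median log2 ratio of the members that could be compared was set beside that of all genes. It was -0.67 against -0.11 in the goblet comparison, 0.73 against -0.12 for Reg4-high over Muc2-high cells and 1.68 against 0.55 for progenitors over enterocyte-like cells. The vascular comparisons gave 1.22 against -0.57 for blood endothelial-like cells, 0.38 against -0.05 for arterial-like cells and 1.4 against -0.27 for pericyte-like over smooth muscle-like cells. For CTFs-like over CBFs-like cells it was 0.16 against -0.08 (wild type) and -0.13 against 0.16 (reporter), and for Il1rl1-high over other CTFs-like cells 0.57 against 0.23 and 0.39 against 0.26. These medians leave out members below the minimum sum.

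The genes whose levels ran most like those of each member over the 21 wild-type classes were named by Pearson's r on log2(class mean + 0.01), as a description over classes of 1 library. For Jag2 they were Zfp366 (0.93), Flt1 (0.9) and Sox17 (0.89), and for Notch1 Cdh5 (0.84), Pitpnc1 (0.82) and Emcn (0.82). For Notch3 they were Higd1b (0.92), Lamc3 (0.91) and Sema5b (0.88), for Jag1 Angpt2 (0.83), Pcp4l1 (0.78) and Mcam (0.78), and for Dll4 Cracr2b (0.9), Sybu (0.88) and Tspan12 (0.87). For Notch2 they were Bloc1s1 (0.89), Glipr2 (0.88) and Arhgap6 (0.88), for Notch4 Scgb3a1 (0.85), Alox12 (0.85) and Aqp7 (0.84), for Hes1 St3gal2 (0.9), Rbms1 (0.9) and Ifitm3 (0.89), and for Dll1 St6galnac4 (0.8), Apaf1 (0.68) and Pdia5 (0.68). Between members, r was 0.83 for Jag2 with Notch4, 0.67 for Dll4 with Jag2, -0.76 for Dll4 with Notch2 and -0.18 for Dll1 with Hes1.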

How the data were processed

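Single-cell 3' libraries were read from the tables that the authors deposited for 2 samples. Per the study's methods and the submitters' processing notes, reads were aligned to mm10 with Cell Ranger and processed in Seurat 3.1 under R 3.6.2 with SCTransform, and cells had already been filtered. The values of the main table are whole numbers named raw, but their totals per cell span only 6120 to 16389 (wild type) and 2314 to 4432 (reporter), so they were taken as the depth-corrected counts of SCTransform and treated as a score deposited by the authors, to which no count test was applied. The second table holds the natural log of the same deposited values plus 1, and was used as an alternative. The original depth per cell is not in these values, so thinning them cannot test it, and the correction can raise low counts in shallow cells. Median totals were 8972 and 3150, and median genes per cell 2804 and 1381.

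Cells were clustered with Seurat 5.3.0 (R 4.3.3) on 30 principal components of 3000 variable features from which the Notch genes were left out, at resolutions of 0.45 (wild type) and 0.3 (reporter). Wild-type epithelial, stromal and endothelial cells were clustered once more, on 2000 variable features, at 0.45, 0.45 and 0.8. Clusters were named X-like from the marker lists where the mean log2 fold of a list was at least 1.0 and at least 3 markers were 2-fold higher and found in 10% of the cells, and were left unnamed where they matched no list, carried another compartment's list or had under 30 cells. An epithelial cluster matched best by the deep crypt secretory list was named goblet-like where it also matched the goblet list. The goblet-like clusters were then labelled by their Reg4 level. In the reporter library CBFs1-like clusters were named by comparison with the CTFs-like cells. The second clustering, the naming rule and the split by Il1rl1 were set after the clusters had been seen. No doublets were removed, and Scrublet (scanpy 1.11.5) called 7 wild-type and 5 reporter cells, too few for the caller to have worked.

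Class means were compared as log2 ratios, a class sum below 3 being set to 3. Genes with a sum of at least 20 over both classes were counted as past 2-fold or not. With 1 library per group no test was run. The ratio was checked on simulated classes with known changes. Named genes were the 9 members, fixed lists of pathway genes, markers where a class is introduced, and the 3 genes with the highest r to each member among genes with a highest class mean of at least 0.1. The members and lists were chosen with earlier results of these data known. Gene positions are from GENCODE M21 (GRCm38) and promoter windows from RefSeq (GRCm38.p6). Alternatives changed the resolution, the principal components, the variable features, doublet and mitochondrial filters, the corrected total per cell by thinning to 2000, the averaging and the fold.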

Additional observations from a re-analysis of the deposited data

Results flagged for a closer look

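Jag1 had opposite signs between CTFs-like and CBFs-like cells in the 2 libraries: on the log2 scale CTFs-like over CBFs-like cells gave 0.5 in wild-type mice and -0.13 in reporter mice, both within 2-fold. The difference between the libraries was not tested, since each is a single library made with another kit and sort.

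An unnamed wild-type cluster of 100 cells, outside the comparisons, had higher levels than every named class for 2 receptors: Notch1 at a mean of 2.64 and Notch4 at 0.7 corrected counts per cell. Dll4 was at 1.19, Jag1 at 1.29 and Notch3 at 3.64 in the same cells. The cluster was left unnamed because it carried endothelial and pericyte markers together. Pecam1 was at 8.99 and Rgs5 at 30.1, and both were above 0 in 92.0% of its cells, against 12.6% of pericyte-like and 19.2% of arterial-like cells. Its median of 3850.0 genes per cell compares with 2102.0 in pericyte-like and 2044.0 in arterial-like cells. Whether these were joined cells or single cells was not tested.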

How the results depend on the processing

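No paired analysis was possible because each group is 1 library and no result comes from a test. Of 88 counts of members past 2-fold under the alternatives, 81 stayed within 1.5 times of the main count. With a 1.5-fold threshold, 8 members differed in the goblet comparison instead of 5, and 4 in the wild-type comparison of CTFs-like with CBFs-like cells instead of 1. Without cells above 10% mitochondrial values, 3 members differed between progenitors and enterocyte-like cells instead of 6. With each cell thinned to 2000, fewer members reached the minimum sum, and the counts were 3 for progenitors, 3 for pericyte-like cells, and 1 for Il1rl1-high CTFs-like cells of either library. The shares of all genes under the 1.5-fold threshold, the mitochondrial filter and the thinning are not given here. These counts therefore do not show how the members stood beside other genes. Of 510 log2 ratios of single members, 464 stayed within the interval that counting alone gives, 46 moved beyond it, and 0 of the members past 2-fold changed direction. The Dll1 ratio of Reg4-high over Muc2-high cells ran from 1.54 to 2.05 on the log2 scale, and that of Il1rl1-high over other CTFs-like cells from 2.75 to 3.19 in wild-type mice and 1.57 to 2.33 in reporter mice, where the split was not formed with 15 principal components or with the Notch genes kept. Without the filter on low values, 23.0% of all genes were past 2-fold in the arterial comparison instead of 12.4%. The alternative without doublets says little, since few cells were called.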

Other observations

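Blood endothelial-like cells were split by Dll4. Of the 184 cells with Dll4 above 0, Notch1 was above 0 in 76.1% (69.3 to 82.1), and of the 316 without, in 64.6% (59.0 to 69.8). Hes1 was above 0 in 92.4% of both sets, at means of 6.0 and 6.6 corrected counts per cell, and Jag2 in 27.2% (20.9 to 34.2) and 22.8% (18.3 to 27.8). Median genes per cell were 2107.5 and 2054.5.

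Dlk1, a noncanonical ligand, was at 0.803 corrected counts per cell in Muc2-high and 0.0268 in Reg4-high goblet-like cells, although it was above 0 in 5.1% and 2.35% of these cells. Enteroendocrine-like cells had it above 0 in 16.7%, at a mean of 0.726. In 89 wild-type fibroblasts that could not be typed, led by Cd36 and Col6a5, Dll1 was above 0 in 20.2% (12.4 to 30.1).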
